A study of Mus musculus with 8 samples.

Results

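Lpl, Cd36, Fabp3, Acsl1 and Slc27a1 are 5 protein-coding genes of the route by which a cardiomyocyte takes fatty acids from the blood and activates them for use. They were chosen by name and gene type, not by a measured value, and make up 5 of the 54531 features in the deposited table and 5 of its 22033 protein-coding genes encoded outside mitochondrial DNA (mtDNA). Small RNA libraries came from hearts of 24-week-old C57BL/6 mice, 4 of them wild type and 4 of them *Rnaseh1* knockout. The knockout was made with loxP alleles and Cre recombinase driven by the muscle creatine kinase promoter (Ckmm-cre), and the deletion covers heart and skeletal muscle. The files do not show which cells of the heart lost it. The labels call the controls +/+ or wild type, whereas the study itself writes L/L, without cre, for control mice. The labels also give heart tissue as the source, whereas the methods name mitochondria isolated from hearts as the source of the small RNA. The columns of values per library have names that begin with mtRNA, which matches the wording of the methods. No measured value was used to decide between these readings.

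The heart covers most of its energy need by oxidising long-chain fatty acids. Lipoprotein lipase (Lpl) frees them from circulating triglycerides at the capillary wall, CD36 at the cell surface and the heart-type fatty acid binding protein FABP3 in the cytosol bring them into the cell, and the transport protein FATP1 (Slc27a1) and the long-chain acyl-CoA synthetase ACSL1 link them to coenzyme A. The acyl-CoA is then passed to carnitine for entry into mitochondria, or is stored as triglyceride.

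All values are the authors' mean, which is a gene's read count scaled by the size factor of its library and then pooled over the 8 libraries of both genotypes. This mean has no replicate error of its own, so no SD or n is given and differences between genes were not tested. It mixes wild-type and knockout libraries, and no comparison of the genotypes is made here. Rnaseh1 itself was listed at 0, so its level offers no check of the genotype labels. A read in these libraries is a short fragment, and a value for a protein-coding gene counts fragments of its transcripts or short RNAs made from within it, not whole messenger RNA. Values are compared between genes after division by the length of all annotated exons, in kilobases (kb).

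The sequence that bears most on these 5 genes is the coding sequence of Fabp3, because the mouse genome holds a near-identical copy of it. Fabp3 (ENSMUSG00000028773) lies at chr4:130308595-130315463 on the plus strand of GRCm38 (mm10), with 1 annotated transcript of 823 bases and a coding sequence of 399 bases before the stop codon. Fabp3-ps1 (ENSMUSG00000056366), a processed pseudogene, lies at chr10:86731987-86732388 on the minus strand. The 402 bases of the pseudogene aligned to bases 184 to 585 of the Fabp3 transcript, the whole coding sequence with its stop codon, with 0 gaps and 3 mismatches, an identity of 99.3%. Counted from 1 at the first base of the coding sequence, with the Fabp3 base first, the mismatches were A40T, C297T and G334A. For a read that lies within 1 coding exon, only these bases can tell the copies apart. Fabp3 has 4 exons, and a read across an exon junction or into an intron also differs between the places in the genome. The stretches around the mismatches are shown 5′ to 3′ from the reference, with the differing bases in capitals. The first pair covers bases 208 to 238 of the Fabp3 transcript and chr10:86732334-86732364, and the second pair covers bases 465 to 532 and chr10:86732040-86732107.
Fabp3, first stretch: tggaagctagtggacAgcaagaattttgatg
Fabp3-ps1, first stretch: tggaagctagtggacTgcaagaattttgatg
Fabp3, second stretch: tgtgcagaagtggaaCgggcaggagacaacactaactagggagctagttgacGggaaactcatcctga
Fabp3-ps1, second stretch: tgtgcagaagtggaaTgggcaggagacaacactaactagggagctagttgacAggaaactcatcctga

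Between these stretches the 2 sequences were identical over runs of up to 256 bases. Of the 373 windows of 30 bases in the Fabp3 coding sequence, 283 (75.9%) were also present in Fabp3-ps1. With 20 bases the share was 323 of 383 windows (84.3%), and with 50 bases it was 226 of 353 (64%). Where such a window lies within 1 exon of Fabp3, a read from it matches both places equally well. The authors' aligner at its default setting reports 1 place for such a read. The windows were cut from the spliced Fabp3 transcript of 4 exons, whereas the authors aligned reads to the genome. A window across an exon junction is continuous in the genome at Fabp3-ps1 but not at Fabp3, and such windows were not counted apart.

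Fabp3-ps1 had an authors' mean of 26.1, the highest of 9497 processed pseudogenes in the table. Of these, 1762 were above 0, with a median of 0.213, and 6 had a mean of 10 or more. Fabp3 had a mean of 35.3, and the pseudogene therefore held 42.5% of the summed mean of the pair. Per kb of exons the pseudogene, a copy of the coding part alone, stood at 64.9 and Fabp3, with its untranslated parts, at 42.9. With all reads of Fabp3 set against its coding length alone, Fabp3 stood at 88.5 per kb, so the order of the pair per length depended on the length used. With the reads of both added, the pair reached 61.4, or 74.6 per kb of the Fabp3 transcript, a raw mean that would place 29th among protein-coding genes in place of the 46th for Fabp3 alone. How many of the reads on the pseudogene came from Fabp3 was not tested, and the 2 values are uncertain for that reason.

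**Figure D1:**
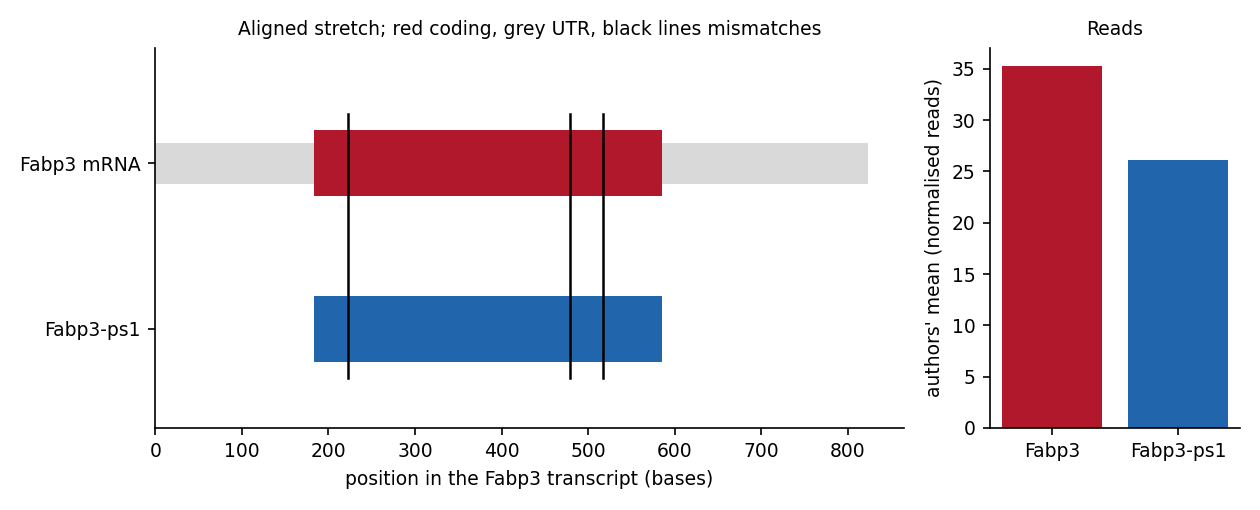
Fabp3 and its processed pseudogene. The left panel marks the 3 mismatches (black lines) along the 402 aligned bases, with the Fabp3 transcript to scale (coding part red, the rest grey), and the right panel shows the authors' mean over 8 libraries (bars from 0, a pooled value without error), 35.3 for Fabp3 and 26.1 for Fabp3-ps1.

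Fabp3 was the highest of the 5 genes per length. Per kb of exons it ranked 15th of the 11103 protein-coding genes above 0 with an exon length, above Cd36 at 33rd and Lpl at 53rd. Acsl1 ranked 639th and Slc27a1 1886th. These ranks correspond to percentiles of 99.9, 99.7 and 99.5 for the 3 highest genes, 94.2 for Acsl1 and 83 for Slc27a1. The median of the ranked genes was 0.111 per kb of exons.

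Lpl (ENSMUSG00000015568, chr8:68880491-68907448, plus strand) hydrolyses lipoprotein triglycerides. Its authors' mean was 103, about 827 normalised reads over the 8 libraries, and it held 50.2% of the summed mean of the 5 genes. Its annotated exons cover 10478 bases in 5 transcripts, which gives 9.87 per kb. Its first annotated transcript is 4115 bases long, with 25.1 per kb, so the level per length depended on which annotated bases were counted.

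Cd36 (ENSMUSG00000002944, chr5:17781690-17888801, minus strand) encodes the fatty acid translocase of the plasma membrane. Its authors' mean was 55.3, about 443 normalised reads, with 15.4 per kb of exons. Its exons cover 3590 bases in 6 transcripts and its first transcript 3016, which gives 18.3 per kb of the first transcript. Per kb of coding sequence it stood at 39.1, and per kb of the whole gene, which spans 107112 bases, at 0.517. Cd36 was 1.56-fold higher than Lpl per kb of exons, but Lpl was 1.37-fold higher than Cd36 per kb of the first transcript. Lpl was also above Cd36 per kb of coding sequence (72.7 against 39.1) and per kb of the whole gene (3.84 against 0.517), so that only the union of exons put Cd36 first. Each length divides the same reads, so these orders are not independent. The coding lengths are near equal (1422 and 1416 bases), and that order repeats the one of the raw means.

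Fabp3 carries fatty acids through the cytosol of muscle cells. Its authors' mean of 35.3 corresponds to about 282 normalised reads, and its exon length and transcript length are the same, at 42.9 per kb. Per kb of exons it was 2.78-fold higher than Cd36 and 4.35-fold higher than Lpl. Fabp3 stayed highest of the 5 genes per kb of exons, of first transcript, of coding sequence and of whole gene, and the reads on Fabp3-ps1 are left out of each of these values.

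Acsl1 (ENSMUSG00000018796, chr8:46471037-46536051, plus strand), the main long-chain acyl-CoA synthetase of heart, had an authors' mean of 9.95, about 79.6 normalised reads. It stood at 0.949 per kb of exons and 2.55 per kb of its first transcript. Fabp3 was 45.2-fold higher than Acsl1 per kb of exons and 16.8-fold higher per kb of the first transcript. Acsl1 has 11 annotated transcripts with 10483 bases of exons, of which its first transcript covers 3897.

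Slc27a1 (ENSMUSG00000031808, chr8:71568882-71587302, plus strand) encodes a membrane protein with acyl-CoA synthetase activity. It was the lowest of the 5, with an authors' mean of 2.11, about 16.9 normalised reads over 8 libraries. Per kb it stood at 0.361 for exons and 0.755 for its first transcript. Acsl1 was 2.63-fold higher per kb of exons and 3.38-fold higher per kb of the first transcript. The values of Slc27a1 thus rest on fewer reads than those of the other 4 genes.

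**Figure D2:**
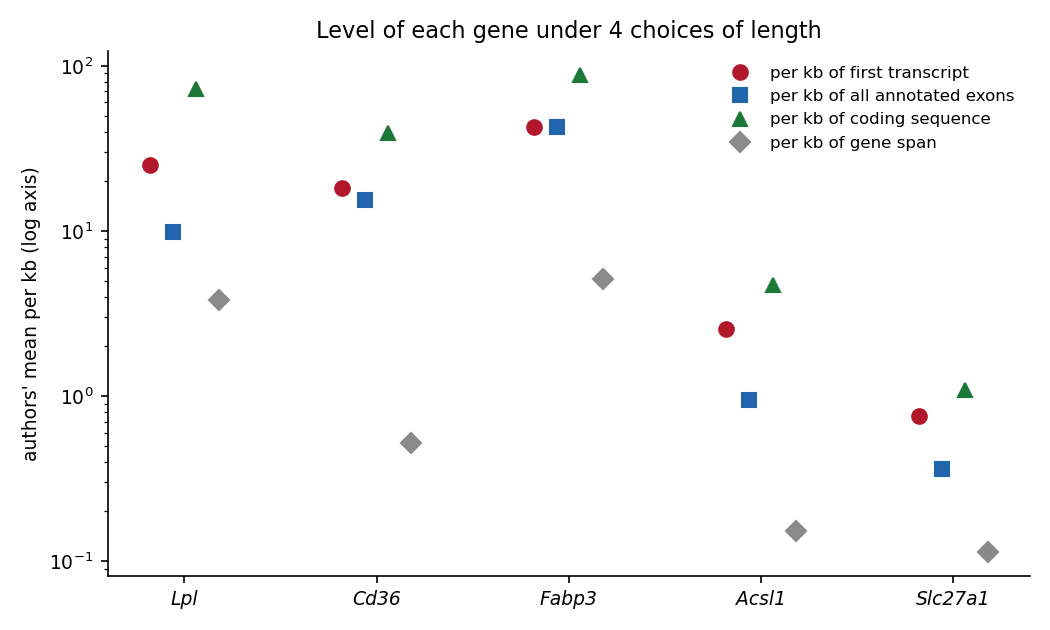
The authors' mean of each of the 5 genes over 8 libraries per kb (log axis), divided by the length of all annotated exons, the first transcript, the coding sequence and the whole gene. Fabp3 is highest on each length, Acsl1 and Slc27a1 are lowest, and Lpl and Cd36 change places between exons and first transcript.

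Stretches shared with other genes were spread unequally over the 5 genes. The search covered annotated transcripts and not the rest of the genome, and no reads were examined. Of all 30-base windows of the first transcript, on either strand, 0 of 2987 were found in a transcript of another gene for Cd36 and 0.362% for Acsl1, against 3.9% for Slc27a1 and 6.34% for Lpl. For Fabp3 the share was 50.8%, or 403 of 794 windows, of which 283 were shared with Fabp3-ps1. The windows of Lpl and Slc27a1 were shared with 567 and 1165 other genes. Those of Fabp3 were shared with 4 genes, Fabp3-ps1, a further processed pseudogene named Gm16179 with an authors' mean of 2.04, and Zcchc17 and Gm10570, which overlap the end of Fabp3 on the opposite strand by 81 and 80 bases. Zcchc17 had an authors' mean of 0.127 and Gm10570 was listed at 0, and the reads were counted by strand.

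In small RNA libraries a protein-coding gene can be high because a small RNA gene lies inside it. Of the 52 protein-coding genes above Lpl per kb of exons, 14 held a small RNA gene on the same strand, such as the snoRNA hosts Hspa8 and Rpl7a, which were picked as examples after their values were seen. Among all protein-coding genes above 0 the share was 9.25%, and these hosts held 43.7% of the summed mean of protein-coding genes. None of the 5 fatty acid genes held one (0 in each). Among genes without a small RNA gene inside, Fabp3 ranked 6th per kb of exons, Cd36 21st and Lpl 39th. Genes of the contractile apparatus surrounded them in this ranking, for example Actc1 at 156 per kb, Myl2 at 39.2 and Tnni3 at 17.8, likewise picked after their values were seen.

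**Figure D3:**
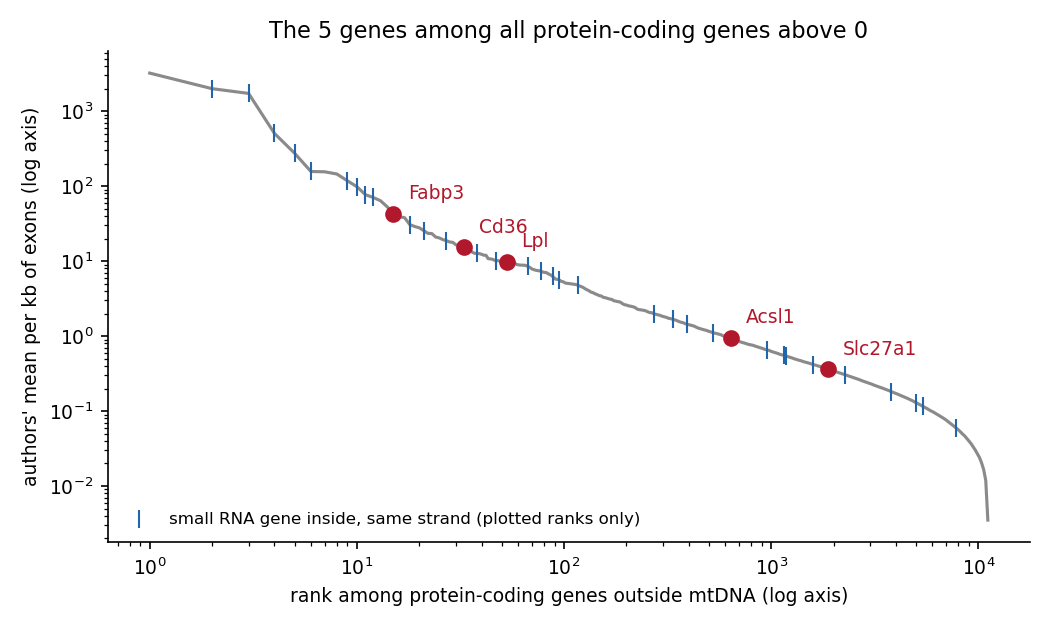
Protein-coding genes outside mtDNA ordered by the authors' mean per kb of exons (both axes logarithmic), with the 5 genes in red. Blue ticks mark genes with a small RNA gene inside on the same strand. The curve and ticks were drawn from a selection of ranks evenly spaced on the log axis, so not every such gene is marked. Fabp3, Cd36 and Lpl lie at ranks 15, 33 and 53, and Acsl1 and Slc27a1 at 639 and 1886.

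Each of Fabp3, Acsl1 and Slc27a1 was the highest member of its gene family. Fabp3 held 97.1% of the per-kb sum of 9 fatty acid binding protein genes. The adipocyte type Fabp4 stood at 0.665 per kb, Fabp1 of liver at 0.58 and Fabp5 at 0.0179, and the other 5 genes were listed at 0. Acsl1 held 68.3% of the per-kb sum of 5 long-chain acyl-CoA synthetase genes, ahead of Acsl4 at 0.236, Acsl5 at 0.121, Acsl6 at 0.0692 and Acsl3 at 0.0146. Slc27a1 held 57.7% of the per-kb sum of 6 fatty acid transport protein genes, ahead of Slc27a4 at 0.107 and Slc27a2 at 0.0878, and Slc27a6 was listed at 0. The raw means behind the smaller of these values were low, 0.0637 for Fabp5 and also for Acsl3, which is the lowest value above 0 in protein-coding genes. Fabp1 had a raw mean of 0.321 against 2.98 for Fabp4, so its value per kb rests on few reads.

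The wider pathway was described by 6 lists with 64 genes in all, 5 of them the genes above. The lists were chosen with earlier results of these data known, so the counts below are descriptive. Of the 59 other genes, 57 were above 0 and 34 had an authors' mean of 1 or more, but 0 reached 10, against 3 of the 5 (Lpl, Cd36 and Fabp3). Among all protein-coding genes, 212 of the 11104 above 0 reached 10. The 59 genes had a median of 0.293 per kb of exons. None of them was above Lpl or Cd36 per kb of exons, 13 were above Acsl1 and 25 above Slc27a1. Per kb of the first transcript, 7 were above Acsl1 and 21 above Slc27a1, and by raw mean 0 were above Acsl1. The examples below were picked from the lists after their values were seen.

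In the lipolysis list of 10 genes, Lpl was followed per kb of exons by Apoe, an apolipoprotein, at 4.02, and Vldlr, a lipoprotein receptor, at 0.962. Gpihbp1, which anchors lipoprotein lipase to capillary endothelium, stood at 0.525. Angptl4, a secreted inhibitor of the lipase, stood at 0.22. The 9 genes other than Lpl had a median of 0.22 per kb.

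In the uptake and binding list of 12 genes, the 9 genes other than Cd36, Fabp3 and Slc27a1 had a median of 0.0878 per kb. The highest of them was Got2 at 1.52, a mitochondrial aminotransferase that has also been described as a fatty acid binding protein of the plasma membrane, followed by the caveolar protein Cav1 at 1.11. Slc27a1 at 0.361 was thus below both, whereas Fabp3 and Cd36 were above every other gene of the list.

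In the list of 11 genes for acyl-CoA formation and binding, Acsl1 was not the highest per length. Acot13, a thioesterase that splits acyl-CoA, stood at 5.04 per kb of exons, Acot2, a mitochondrial thioesterase, at 3.07, and Acss1, which activates acetate in mitochondria, at 1.31. The acyl-CoA binding protein gene Dbi stood at 1.21. By its raw mean of 9.95 Acsl1 had the most reads of the list, spread over 10483 bases of exons. Per kb of the first transcript, Acot13 stood at 5.2, Acot2 at 3.07 and Dbi at 3.03, still above the 2.55 of Acsl1.

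Downstream of activation, the 6 genes of the carnitine shuttle had a median of 0.393 per kb of exons and a highest value of 1.97. The muscle form of carnitine palmitoyltransferase 1, Cpt1b, had a raw mean of 0.175 and stood at 0.052 per kb, the lowest of its list. That raw mean is near the lowest above 0 in protein-coding genes, 0.0637, and rests on very few reads. Overlaps with other genes were searched only for the 5 fatty acid genes. Crat, which moves acetyl groups to carnitine, stood at 1.53. The 15 genes of the triglyceride store ranged from 0.0208 to 1.09 per kb, with the triglyceride lipase gene Pnpla2 at 1.03. The 10 regulators ranged from 0.0671 to 0.411, with the coactivator gene Ppargc1a the highest. None of the genes in these 3 lists reached a raw mean of 10.

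**Figure D4:**
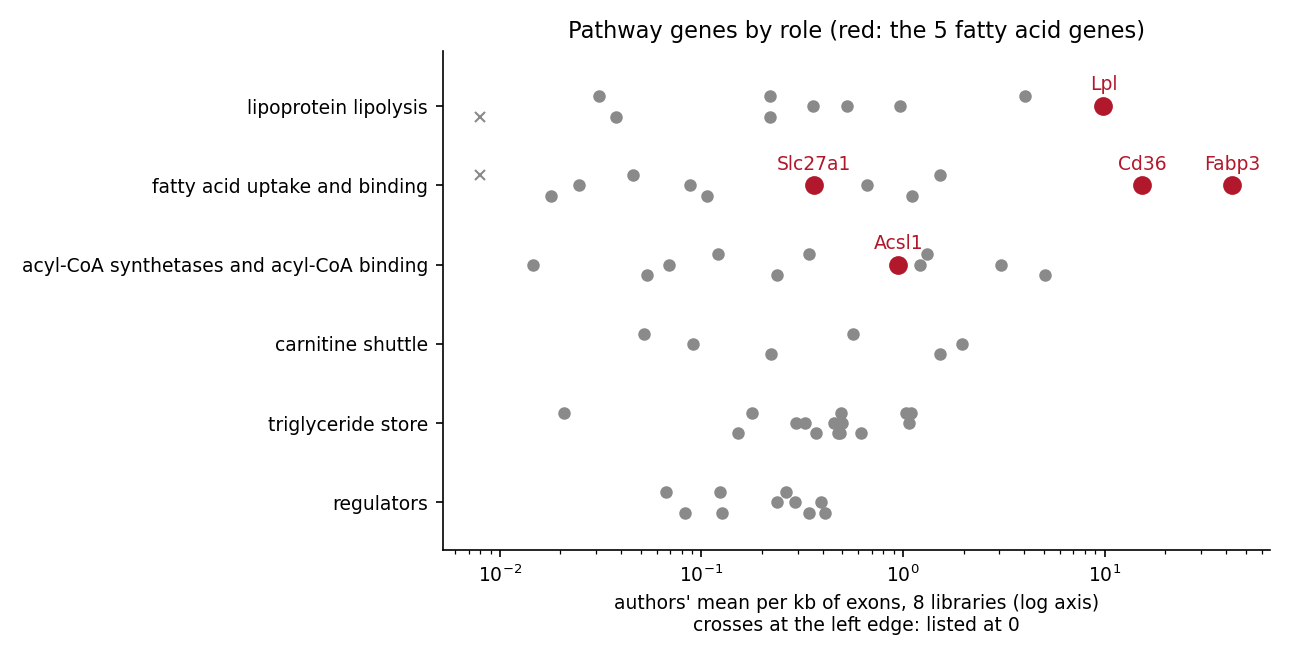
The authors' mean per kb of exons over 8 libraries (log axis) for each gene of 6 pathway lists, with the 5 genes in red. Fabp3, Cd36 and Lpl lie at 42.9, 15.4 and 9.87, above every grey point, of which the highest is Acot13 at 5.04, whereas Acsl1 and Slc27a1 lie among the grey points.

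Marker genes of the cell types that share the heart were read beside these levels. The 8 cardiomyocyte markers ranged from 2.3 to 156 per kb of exons, with a median of 23.4, so the defining genes of heart muscle were present. Fabp3, Cd36 and Lpl lay within that wide range, and 6 of the 8 markers were above Lpl. The 8 endothelial markers, which belong to a cell type that also expresses Cd36, ranged from 0.289 to 2.53, all below Cd36. The 7 adipocyte markers, of a cell type rich in Lpl, Cd36 and Acsl1, had a median of 0.024 and a highest value of 0.251, with Lep, Cidec and Retn listed at 0. The 5 skeletal muscle markers were at most 0.143. Fibroblast and matrix markers ranged from 0.215 to 3.57, leukocyte markers from 0.0369 to 4.88 and smooth muscle and pericyte markers from 0.0408 to 1.94, all below Lpl. The 4 erythroid markers stood at 8.79 to 14.6, also within the cardiomyocyte range, and 2 of them were above Lpl. A place within that range therefore does not tell the cell types apart. The part of each cell type in the levels of the 5 genes was not tested, and in bulk samples fewer cells of a type and less RNA per cell cannot be told apart. If the RNA came from isolated mitochondria, all these levels describe what remained in that preparation, not the whole heart.

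Across the whole series, 14456 of 54531 features were above 0, with a summed mean of 822885. snoRNAs held 73.3% of that sum, mtDNA-encoded features 4.25% and protein-coding genes outside mtDNA 5.03%. The 5 genes together held 0.025% of the whole and 0.498% of the protein-coding sum, with a summed mean of 206.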

How the data were processed

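Small RNA was sequenced from 4 wild-type and 4 *Rnaseh1* knockout hearts. Bowtie2 (version 2.3.4.1, default settings) served the authors for alignment to mm10. Counting was strand-specific, with featureCounts (version 1.6.3) and the annotation of Ensembl release 94 for GRCm38, to which the authors added mitochondrial features. Normalisation by the authors was with DESeq2 (version 1.18.1, R version 3.5.1). The deposited signal used here is their mean of normalised counts over all 8 libraries. The depth of each library was not used here, and a pooled mean has no error.

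The table also holds 8 columns of values per library, whose names match no sample title and show no genotype, and 5 columns of the authors' own comparison (log2 fold change, its standard error, statistic, p-value and adjusted p-value). None was used here. The planned tests between genotypes (a linear model on log values, a count model on recovered reads, a replicate block, leaving out single libraries) were therefore not run, and the level of each gene is reported in place of a genotype difference.

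Exons, transcripts and overlaps came from GENCODE M21 (GRCm38); 53462 of 54531 features had the same coordinates there, all 5 genes among them. Lengths were the union of annotated exons, and as alternatives the first transcript by number, the coding sequence and the gene span. Fabp3-ps1 was aligned with Biopython version 1.88, and shared windows of 20, 30 and 50 bases were searched in all transcripts on both strands, after a test on simulated sequences. Python version 3.11.15, numpy version 2.4.6, pandas version 2.3.3 and matplotlib version 3.10.9 were used. The 5 genes were all named, as were other pathway genes with an authors' mean of 10 or more (none), and Rnaseh1 as the targeted gene. Further genes were named after their values were seen. The genes and lists were chosen with earlier results of these data known.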

Additional observations from a re-analysis of the deposited data

How the results depend on the processing

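No paired analysis was possible because the columns per library carry no genotype or replicate number, and for the same reason leaving out single libraries, other pseudocounts and other normalisations were not run. Scaled to a sum of 1000000 over all features, the authors' means of Lpl, Cd36, Fabp3, Acsl1 and Slc27a1 were 126, 67.2, 42.9, 12.1 and 2.56. Per 1000000 of the sum outside mtDNA, Lpl stood at 131, Cd36 at 70.2, Fabp3 at 44.8, Acsl1 at 12.6 and Slc27a1 at 2.68. Per 1000000 of the protein-coding sum they stood at 2501, 1338, 854, 241 and 51. Per 1000000 of the sum of all features, Fabp3 reached 74.6 with Fabp3-ps1 added, an alternative chosen after seeing the data. Per kb of coding sequence the 5 genes stood at 72.7, 39.1, 88.5, 4.74 and 1.09 in the same order. Per kb of gene span they stood at 3.84, 0.517, 5.14, 0.153 and 0.114. Per kb of the first transcript, also chosen after seeing the data, Lpl stood at 25.1, Cd36 at 18.3, Acsl1 at 2.55 and Slc27a1 at 0.755, and Fabp3 kept its value. Lpl was above Cd36 on every length except the union of exons, which in Lpl is more than its first transcript by the further annotated transcripts. With a minimum mean of 1, the lists of lipolysis, uptake and binding, acyl-CoA formation, carnitine shuttle, triglyceride store and regulators held 5, 6, 7, 4, 11 and 6 genes, and with a minimum of 50 the uptake and binding list held 1. The pooled mean has no error, so the precision of the levels was not measured.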
